A study of Mus musculus with 8 samples.

Results

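Tumour necrosis factor (TNF) and the core of its receptor complex were followed through 8 RNA libraries of mouse bone marrow. The members are 10 listed gene symbols, found by name in both deposited count tables: the ligands Tnf, Lta and Ltb, the receptors Tnfrsf1a and Tnfrsf1b, the adaptors Tradd, Traf1 and Traf2, the kinase Ripk1 and the protease Adam17. They are 10 of 47643 genes in the macrophage table and 10 of 52458 in the plasma cell table. The rule that lists them uses no measured value, but earlier results of these data were known when they were chosen. All 10 passed the filter on low counts.

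All animals were WT mice of the B6 strain, with no treatment. Macrophages were sorted from bone marrow as F4/80 high, CD11b low cells. In the tumour-bearing mice, GFP+ Vk*MYC myeloma cells purified by CD138 had been injected into the tibia. Vk*MYC cells carry a MYC transgene under immunoglobulin kappa elements and come from mice that develop plasma cell tumours. Tumour-associated macrophages (TAM) were split by their own GFP signal into GFP+ cells, taken to touch myeloma (TAM-IC), and GFP- cells, taken not to (TAM-NIC), so contact was read from GFP and not seen directly. Macrophages of naive mice, which bear no tumour, were the controls. Each of the 3 macrophage groups held 2 libraries, and the TAM labels name mouse 1 and mouse 2. The sources used here do not give ages, the time after injection or the number of animals per sample. Where nothing says that libraries came from separate animals, p-values measure only the spread between these libraries. The other 2 libraries are labelled only as plasma cells. The design names both Vk*MYC myeloma (GFP high, CD138 high) and polyclonal plasma cells of naive mice (GFP-, CD138 high, B220 low), without saying which library is which, so their values are given library by library and enter no test.

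TNF is made as a membrane-bound trimer and is released from the cell by the protease encoded by Adam17. Soluble TNF acts mostly through TNFR1, encoded by Tnfrsf1a and present on most cells, while membrane TNF also engages TNFR2, encoded by Tnfrsf1b and prominent on myeloid and lymphoid cells. TNFR1 has a death domain that recruits TRADD and the kinase RIPK1, and TRAF2 joins them with ubiquitin ligases to start NF-kB signalling or, when that step fails, cell death. TNFR2 binds TRAF2 directly, together with TRAF1, whose gene is itself switched on by NF-kB. Lymphotoxin alpha (Lta) and beta (Ltb) are TNF relatives made mainly by lymphocytes. Macrophages are a main source of TNF, and plasma cell tumours respond to it in the marrow.

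Several libraries stood apart from the rest of their group or from their label. The macrophage libraries held 28887725 to 46873056 counts and the plasma cell libraries 81792139 and 38343783. The macrophage genes Adgre1, Csf1r and Cd68 lay between 519 and 4368 CPM (a gene's count scaled to its library's total, on the usual scale) in all 6 macrophage libraries and between 4.76 and 29.7 CPM in the plasma cell libraries. These genes were picked from 10 macrophage markers, of which 9 were lower by sign in TAM-IC than in TAM-NIC (median log2 fold change -3.49). Against naive macrophages, 9 of the 10 were lower in TAM-IC (median -3.45) and 5 of the 10 in TAM-NIC (median 0.04). Cd5l, a gene of marrow-resident macrophages, was at 213 and 200.4 CPM in TAM-NIC and 1435 and 614 CPM in naive macrophages, but at 6.70 and 3.82 CPM in TAM-IC. Genes of other cells were present throughout: 8 neutrophil markers summed to between 9080 and 73050 CPM, above the macrophage sum in 5 of 6 libraries. TAM-NIC replicate 2 gave 9.13% of its counts to immunoglobulin genes, against 0.166% to 0.632% in the other 5 macrophage libraries and 67.3% and 70.4% in the plasma cell libraries. TAM-IC replicate 2 held 3725 counts of the Y-linked gene Ddx3y and 0 of Xist. It alone did so: the other macrophage libraries held 0 to 11 of Ddx3y and 777 to 2521 of Xist. TAM-NIC replicate 2 held 8 and 1253. Both replicate 2 libraries of TAM are labelled mouse 2, and these counts go against 1 shared animal. Values without these libraries are given beside the results that they moved most.

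Tnf, Lta and Ltb lie side by side on chromosome 17 of GRCm38, within the major histocompatibility complex. Ltb (chr17:35194439-35196320) is on the plus strand, Tnf (chr17:35199381-35202007) and Lta (chr17:35203165-35205351) are on the minus strand, and gaps of 3060 bp and 1157 bp separate them. The 250 bases before the start of each are shown because these neighbours had unlike levels and unlike patterns in the same libraries, and that of Traf1 because it is the member that passed the test. The sequences come from RefSeq on GRCm38.p6 and run 5′ to 3′ on the gene's strand, with capitals marking a match to one of the motifs searched. Starts are those of RefSeq, and that of Ltb lies 68 bases inside the gene as GENCODE draws it, so its window covers those bases.
Tnf, chr17:35202008-35202257, minus strand: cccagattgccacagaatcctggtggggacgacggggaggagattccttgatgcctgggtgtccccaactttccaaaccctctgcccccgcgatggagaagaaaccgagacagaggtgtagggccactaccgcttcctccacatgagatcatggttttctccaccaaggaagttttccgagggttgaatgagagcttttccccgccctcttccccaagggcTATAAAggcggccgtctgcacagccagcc
Ltb, chr17:35194257-35194506, plus strand: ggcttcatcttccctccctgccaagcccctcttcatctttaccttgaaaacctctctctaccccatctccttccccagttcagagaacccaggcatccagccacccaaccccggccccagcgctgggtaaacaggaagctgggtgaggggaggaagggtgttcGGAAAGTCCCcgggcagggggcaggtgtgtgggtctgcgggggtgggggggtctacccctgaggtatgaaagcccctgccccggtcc
Lta, chr17:35205352-35205601, minus strand: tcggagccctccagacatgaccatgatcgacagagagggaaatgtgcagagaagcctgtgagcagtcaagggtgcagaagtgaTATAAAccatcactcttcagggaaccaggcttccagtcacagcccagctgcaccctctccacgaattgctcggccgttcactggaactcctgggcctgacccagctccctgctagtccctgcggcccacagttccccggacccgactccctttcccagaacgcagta
Traf1, chr2:34961773-34962022, minus strand: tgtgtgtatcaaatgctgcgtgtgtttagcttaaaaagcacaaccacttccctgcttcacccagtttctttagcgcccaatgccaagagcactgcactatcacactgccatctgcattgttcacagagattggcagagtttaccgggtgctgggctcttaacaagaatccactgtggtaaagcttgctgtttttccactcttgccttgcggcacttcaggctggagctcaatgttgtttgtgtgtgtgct

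The motifs searched were the TATA box TATAAA on the gene's strand, the AP-1 element TGACTCA or TGAGTCA on both strands, and the NF-kB consensus on both strands. Tnf has a TATA box at 29 to 24 bases before its start, the usual place. Lta has one at 167 to 162 bases before its start, and Ltb and Traf1 have none in this window. The NF-kB consensus was found in Ltb alone of these, at 87 to 78 bases before the start and read on the other strand. Of 32851 mouse promoters of this length, 7.59% hold the TATA box, 7.25% the NF-kB consensus and 4.46% the AP-1 element. Promoters were found for 9 members, and none of the other 5 held a match to these letters.

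Tnf mRNA is short-lived because an AU-rich element in its 3′ untranslated region recruits decay proteins such as tristetraprolin. The 30 bases below hold 4 of the 5 copies of the nonamer TTATTTATT that Tnf carries in 764 bases after its stop codon, from GENCODE M21 on GRCm38. All bases are in capitals because nonamers or their overlapping parts fill the stretch. The run of overlapping copies was cut at 30 bases, and the stretch ends inside the remaining copy.
Tnf, chr17:35199678-35199707, minus strand: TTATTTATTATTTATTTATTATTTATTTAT

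Of 21037 genes with a 3′ untranslated region, 1610 (7.65%) had at least 1 such nonamer, and 42 (0.2%), Tnf included, had 5 or more. Ripk1 carried 2 and Lta 1, and the other 7 members carried 0.

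Apart from Lta, which was near the detection limit, Tnf had the largest ratio between libraries of 1 group. It read 23.7 and 909 CPM in TAM-NIC, 27.0 and 66.4 CPM in TAM-IC, and 15.6 and 17.2 CPM in naive macrophages. A single library, TAM-NIC replicate 2, held far more Tnf than any other, and its partner lay below both TAM-IC libraries. Every TAM library lay above both naive libraries. Group means were 466 ± 626 CPM in TAM-NIC, 46.7 ± 27.8 CPM in TAM-IC and 16.4 ± 1.13 CPM in naive macrophages (SD, n = 2 each). With edgeR's quasi-likelihood test, the log2 fold change was 4.94 ± 1.57 (SE) for TAM-NIC over naive, with a Benjamini-Hochberg adjusted p of 0.251. It was 1.68 ± 1.37 for TAM-IC over naive (edgeR adjusted p = 0.589) and -3.26 ± 1.45 for TAM-IC over TAM-NIC (edgeR adjusted p = 0.321). Leaving out TAM-NIC replicate 2 gave 0.71 for TAM-NIC over naive and turned the difference between the TAM groups to 0.95 in favour of TAM-IC, with edgeR adjusted p-values of 0.456 and 0.434. Leaving out its partner, replicate 1, gave 5.87 and -4.21, with edgeR adjusted p-values of 0.0149 and 0.0164, so the call depended on which library stood for the group.

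The library with the high Tnf was also the one rich in immunoglobulin and plasma cell transcripts. All 8 plasma cell markers were higher in TAM-NIC than in naive macrophages by the sign of the fold change, and their sum was 5588 CPM in replicate 2 against 615 to 901 CPM in the other 5 macrophage libraries. In TAM-NIC replicate 1 the sum was 697 CPM, below both naive libraries (745 and 901 CPM), so the high sum belonged to replicate 2 alone. The plasma cell libraries read 1.80 and 1.83 CPM of Tnf. Immunoglobulin took 67.3% and 70.4% of their counts, which lowers the CPM of every other gene. The part of plasma cells in the high Tnf value was not tested. In bulk RNA, more cells making Tnf and more Tnf per cell cannot be told apart.

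Lta was close to the limit of detection throughout. It was counted 24 and 0 times in TAM-NIC, 29 and 37 times in TAM-IC, and 14 and 45 times in naive macrophages. These are 0.580 and 0 CPM, 0.652 and 0.878 CPM, and 0.299 and 1.56 CPM, and the count of 0 allows up to 0.0966 CPM, a limit for counting error only. The naive libraries span both TAM-IC values, and the TAM-NIC library without Lta is the one with the highest Tnf. No Lta difference passed edgeR's test, with log2 fold changes of 1.36 ± 1.66, -0.11 ± 1.61 and -1.47 ± 1.66 for TAM-IC over TAM-NIC, TAM-IC over naive and TAM-NIC over naive (SE).

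Ltb, which anchors lymphotoxin alpha to the cell surface as a mixed trimer, followed another order. It read 19.1 and 26.2 CPM in TAM-NIC, 55.6 and 73.2 CPM in TAM-IC, and 49.7 and 75.2 CPM in naive macrophages. Both TAM-NIC libraries lay below all 4 others, while TAM-IC and naive macrophages overlapped. The log2 fold change of TAM-IC over TAM-NIC was 1.54 ± 0.33 (SE; edgeR adjusted p = 0.162), and that of TAM-NIC over naive was -1.33 ± 0.32 (edgeR adjusted p = 0.224). Without TAM-NIC replicate 2 these were 1.72 and -1.53, with edgeR adjusted p-values of 0.133 and 0.0931. Without TAM-IC replicate 2 the first was 1.30. DESeq2 called both, at adjusted p = 0.00361 and 0.0152.

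Lymphocytes are the usual source of Ltb, and their markers were present. The 8 B cell markers summed to 152 and 173 CPM in TAM-NIC, 118 and 91.6 CPM in TAM-IC, and 430 and 538 CPM in naive macrophages. All 8 were lower in each TAM group than in naive macrophages by sign, and none was at 0 in any macrophage library. Between the TAM groups 5 of 8 B cell markers were higher by sign in TAM-IC, and Cd79b, which made up most of the TAM sums, was lower, at 137 and 129 CPM in TAM-NIC and 75.6 and 57.7 CPM in TAM-IC. The 8 T cell markers summed to 353 and 155 CPM, 122 and 30.7 CPM, and 226 and 126 CPM in these groups, most of it Cd4 except in TAM-IC. By sign 7 of 8 T cell markers were higher than in naive macrophages in TAM-IC and 7 of 8 in TAM-NIC. Granulocyte markers followed the order of Ltb: the 8 neutrophil markers summed to 9080 and 17320 CPM in TAM-NIC, 49710 and 27630 CPM in TAM-IC, and 46870 and 73050 CPM in naive macrophages. The 6 eosinophil markers summed to 22.7 and 130 CPM, 852 and 1186 CPM, and 604 and 1831 CPM in these groups, and 8 of 8 neutrophil and 5 of 6 eosinophil markers were higher by sign in TAM-IC than in TAM-NIC. The part of these cells in the Ltb values was not tested.

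The 2 receptors behaved unlike each other. Tnfrsf1a (chr6:125349362-125362484) read 220.3 and 204 CPM in TAM-NIC, 272 and 343 CPM in TAM-IC, and 284 and 303 CPM in naive macrophages. Its whole range over the 6 macrophage libraries was narrow, although both TAM-NIC libraries were the lowest. The log2 fold changes of Tnfrsf1a were 0.55 ± 0.28, 0.23 ± 0.28 and -0.33 ± 0.28 (SE) for TAM-IC over TAM-NIC, TAM-IC over naive and TAM-NIC over naive, with edgeR adjusted p-values of 0.365, 0.733 and 0.645. Without TAM-IC replicate 2 the first was 0.34 and the second 0.0019.

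Tnfrsf1b (chr4:145213463-145246870) read 760.1 and 571 CPM in TAM-NIC, 1137 and 2370 CPM in TAM-IC, and 403 and 269 CPM in naive macrophages. The 3 groups did not overlap: naive macrophages were lowest, TAM-NIC in between and TAM-IC highest. Its log2 fold change was 2.55 ± 0.52 (SE) for TAM-IC over naive (edgeR adjusted p = 0.146), 1.42 ± 0.50 for TAM-IC over TAM-NIC (0.244, edgeR adjusted) and 1.13 ± 0.50 for TAM-NIC over naive (0.358, edgeR adjusted). DESeq2 called the first at adjusted p = 3.35e-05 and the second at 0.0488. TAM-IC replicate 2 carried the highest value, and without it the first 2 were 1.86 and 0.76, with edgeR adjusted p-values of 0.728 and 0.835. Without TAM-NIC replicate 2 the fold change of TAM-IC over TAM-NIC was 1.18. TAM-IC replicate 2 is also the only macrophage library with high Ddx3y and no Xist, and the part of sex in its Tnfrsf1b value was not tested.

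Markers of monocytes, which carry TNFR2, moved in the same order between the TAM groups. The 6 monocyte markers summed to 1338 and 975 CPM in TAM-NIC, 3001 and 3672 CPM in TAM-IC, and 1198 and 1499 CPM in naive macrophages, with 6 of 6 higher by sign in TAM-IC than in TAM-NIC. Ccr2, the chemokine receptor of inflammatory monocytes, was at 191 and 52.4 CPM, 925 and 618 CPM, and 79.7 and 110 CPM in these groups. The part of monocytes in the Tnfrsf1b values was not tested.

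**Figure D1:**
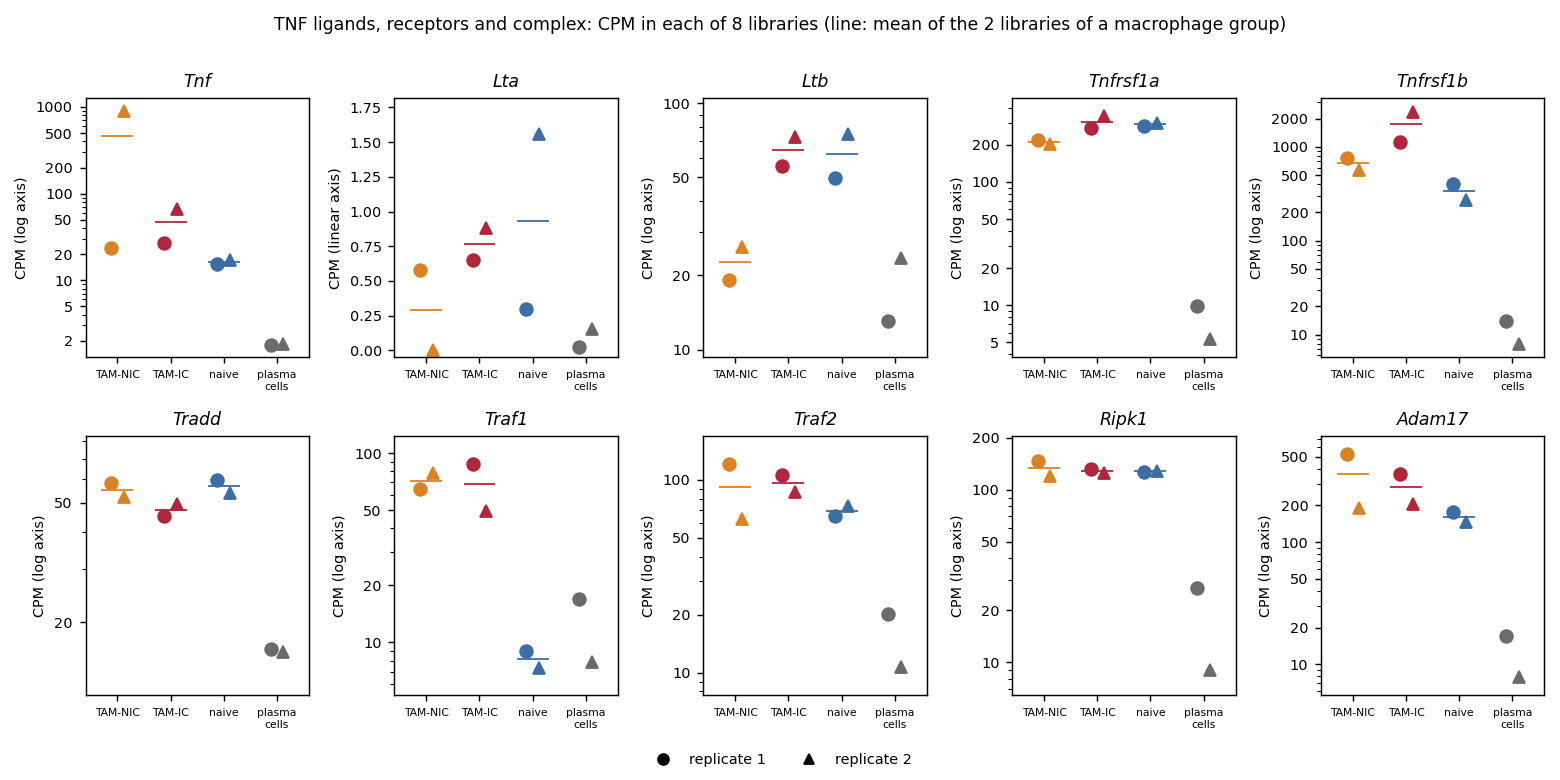
CPM of the 10 genes in each of 8 libraries, 1 panel per gene, on a log axis except for Lta. Circles are replicate 1, triangles replicate 2, and lines are means of a macrophage group. Traf1 separates both TAM groups from naive macrophages, and the single Tnf value of 909 CPM is TAM-NIC replicate 2.

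Set per kilobase of exon, where genes can be compared with each other, the receptors changed order. Tnfrsf1a and Tnfrsf1b were at 110 and 106 CPM per kb in naive replicate 1, and at 117 and 70.5 CPM per kb in naive replicate 2. The ratio of Tnfrsf1b to Tnfrsf1a was 0.962 and 0.603 in naive macrophages, 2.34 and 1.90 in TAM-NIC, and 2.84 and 4.70 in TAM-IC. Per kb, Tnfrsf1b was thus above Tnfrsf1a in all 4 TAM libraries, clearly below it in naive replicate 2 and nearly level with it in naive replicate 1. The order in naive replicate 1 depends on the exon lengths, since Tnfrsf1b was the higher there in CPM (403 against 284). The ratio compares 2 levels inside a library, so the library's total drops out of it, but the exon lengths do not.

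Tnfrsf1b was the highest of the 10 per kb in 3 of the 4 TAM libraries and Tnfrsf1a in both naive libraries. The exception was TAM-NIC replicate 2, where Tnf led with 555 CPM per kb against 150 CPM per kb of Tnfrsf1b. In the other 5 macrophage libraries Tnf lay between 9.50 and 40.5 CPM per kb. Lta was last in all 6 except naive replicate 2, where its 1.13 CPM per kb stood above the 0.832 CPM per kb of Traf1. Traf1 was otherwise the second lowest, at 5.62 to 9.98 CPM per kb in TAM. This rank depends on its exon length of 8819 bp. In CPM, Traf1 (64.4) was above Tradd (58.1), Tnf (23.7) and Ltb (19.1) in TAM-NIC replicate 1. In TAM-IC replicate 2 it was below these 3 genes.

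Traf1 (chr2:34941750-34961772, minus strand) was the 1 member that passed edgeR's test. The adaptor read 64.4 and 78.0 CPM in TAM-NIC, 88.0 and 49.6 CPM in TAM-IC, and 8.94 and 7.34 CPM in naive macrophages. All 4 TAM libraries lay far above both naive libraries, and the TAM groups overlapped each other. Traf1 rose 9.35-fold in TAM-IC over naive, a log2 fold change of 3.22 ± 0.35 (SE; 95% interval 2.38 to 4.07), with an edgeR adjusted p of 0.0493. In that comparison edgeR called 34 of 15522 genes, a background of 0.219%, and 5 of these were higher in TAM-IC, a background of 0.0322%.

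In TAM-NIC the difference of Traf1 from naive was as large, 9.60-fold or 3.26 ± 0.35 (SE) on the log2 scale, but did not pass, with an edgeR adjusted p of 0.183. By unadjusted p it was rank 2 of 15522 genes, in a comparison in which edgeR called 0 genes, a background of 0%, and 2354 genes had an unadjusted p under 0.05. Without TAM-NIC replicate 2, Traf1 passed there with 3.15 and an edgeR adjusted p of 0.0416. DESeq2 called Traf1 in both comparisons, at adjusted p = 1.24e-12 and 1.99e-12. The 2 comparisons share the naive libraries. The log2 fold change between the TAM groups was -0.04 ± 0.32 (SE; 95% interval -0.81 to 0.73).

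The call of Traf1 in TAM-IC was near the threshold. Its edgeR adjusted p was 0.422 without TAM-IC replicate 2, 0.151 without TAM-IC replicate 1, 0.427 without naive replicate 1 and 0.228 without naive replicate 2, while the log2 fold change stayed between 2.80 and 3.54. With the mouse number as a block it was 0.0281, in a fit that called 1.2% of all genes.

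Traf2, the partner that binds TRAF1, varied much less. It read 121 and 62.4 CPM in TAM-NIC, 106 and 86.9 CPM in TAM-IC, and 64.7 and 73.0 CPM in naive macrophages. TAM-IC lay above naive macrophages, while the TAM-NIC libraries fell on either side of everything else. Its log2 fold change over naive was 0.64 ± 0.36 (SE) in TAM-IC (edgeR adjusted p = 0.455) and 0.56 ± 0.36 in TAM-NIC (edgeR adjusted p = 0.527), and the latter was 0.98 without TAM-NIC replicate 2. The ratio of Traf1 to Traf2 per kb was 0.0799 and 0.0581 in naive macrophages, 0.308 and 0.724 in TAM-NIC, and 0.481 and 0.330 in TAM-IC. The lowest TAM ratio was several times the highest naive one, and the TAM groups overlapped.

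**Figure D2:**
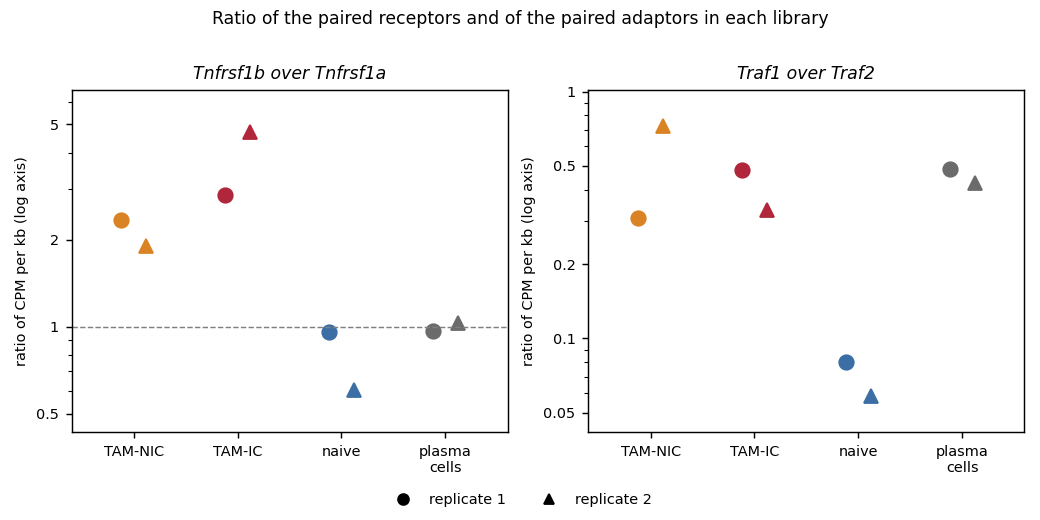
Ratio of CPM per kb of Tnfrsf1b to Tnfrsf1a and of Traf1 to Traf2 in each of 8 libraries, on log axes; circles are replicate 1, triangles replicate 2, and the dashed line marks equal levels. Both ratios are higher in all 4 TAM libraries than in both naive libraries, and the plasma cell libraries read 0.967 and 1.03 for the receptors.

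Tradd and Ripk1, the death-domain adaptor and the kinase of the TNFR1 complex, were the steadiest members. Tradd (chr8:105258286-105264609) read 58.1 and 52.3 CPM in TAM-NIC, 45.0 and 49.7 CPM in TAM-IC, and 59.6 and 54.1 CPM in naive macrophages. TAM-IC was the lowest group on library totals but overlapped both others once TMM scaling was applied. Its log2 fold changes were between -0.20 and 0.10, each with an SE of 0.23.

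Ripk1 (chr13:34002363-34037147, plus strand) read 147 and 120.0 CPM in TAM-NIC, 133 and 125 CPM in TAM-IC, and 128 and 128 CPM in naive macrophages. The naive libraries lay inside the range of each TAM group on library totals, and below both groups once TMM scaling was applied. Its log2 fold change was -0.04 (95% interval -0.62 to 0.55) for TAM-IC over TAM-NIC, 0.17 (-0.42 to 0.75) for TAM-IC over naive and 0.20 (-0.38 to 0.79) for TAM-NIC over naive. Exons of Ripk1 overlap those of Serpinb6a on the other strand, and the library kit does not keep the strand, so reads of both genes cannot be told apart.

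Adam17 (chr12:21323509-21373632, minus strand), the enzyme that sheds TNF and both its receptors, read 530 and 192 CPM in TAM-NIC, 362 and 205 CPM in TAM-IC, and 177 and 146 CPM in naive macrophages. Each TAM library lay above both naive libraries, replicate 1 of each group well above replicate 2. The log2 fold change of Adam17 was 0.96 ± 0.55 (SE) for TAM-IC over naive and 1.32 ± 0.55 for TAM-NIC over naive, with edgeR adjusted p-values of 0.455 and 0.339. Without TAM-NIC replicate 2 the second was 1.88, with an edgeR adjusted p of 0.0757. Exons of Adam17 overlap those of Iah1 on the other strand, with the same limit as for Ripk1.

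Counted over the 10 genes, separation between groups was common but so it was over all genes. On library totals, TAM-IC had 5 members above and 1 below naive macrophages with no overlap, against 23% and 36.7% of all tested genes. TAM-NIC had 4 above and 2 below naive macrophages, against 16.6% and 28.9%. Between the TAM groups 4 were higher and 1 lower in TAM-IC, against 24.4% and 22.3%. With TMM scaling the members' counts were 6 and 0, 5 and 2, and 4 and 0 in these comparisons. The shares of all genes were counted on library totals only. On library totals, Tnf, Tnfrsf1b, Traf1 and Adam17 were the 4 that lay above naive macrophages in both TAM groups. With TMM scaling Ripk1 joined them. The 2 comparisons with naive macrophages share the naive libraries. EdgeR called 0 of 10 members between the TAM groups, where it called 0 of all genes, a background of 0%, with 2653 genes at an unadjusted p under 0.05. DESeq2 called 3 members there, Tnf, Ltb and Tnfrsf1b, against 10.3% of all genes. It called 2 members in TAM-IC over naive against 7.99%, and 3 in TAM-NIC over naive against 7.95%.

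The median log2 fold change of the 10 was 0.43 for TAM-IC over naive, 0.38 for TAM-NIC over naive and 0.02 between the TAM groups, where the median of all tested genes was 0.00, 0.06 and -0.00. Scaling by library totals alone moved the median of all genes for TAM-IC over naive to -0.15.

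**Figure D3:**
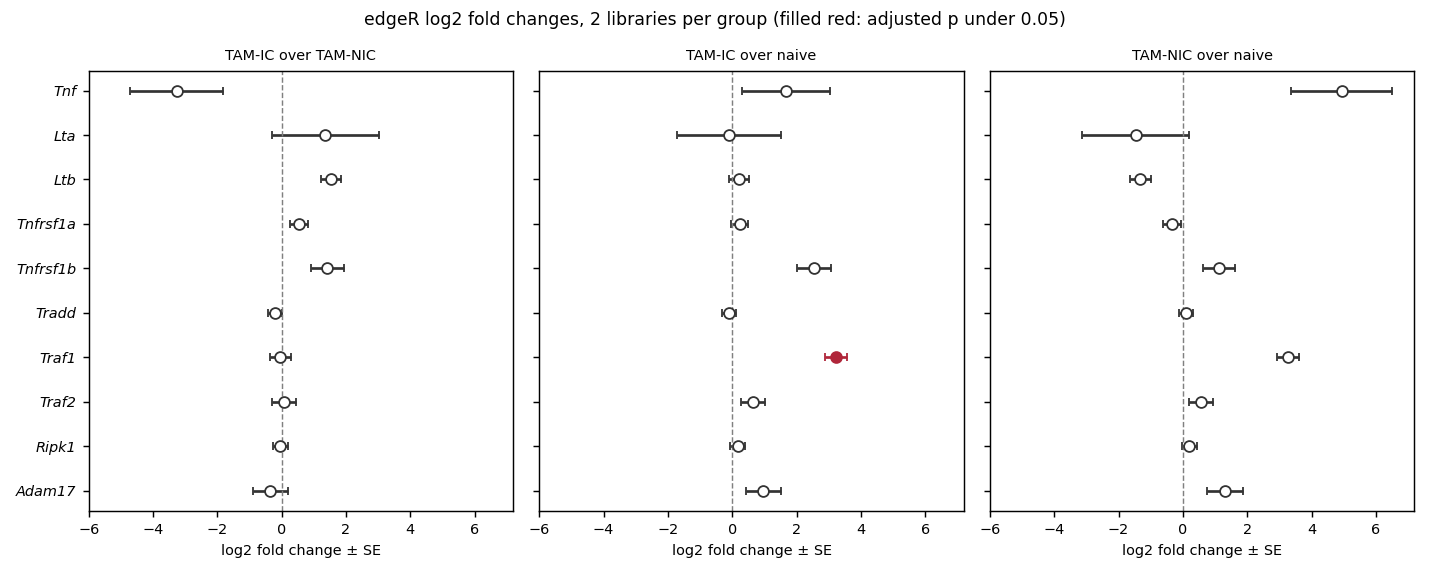
EdgeR log2 fold changes with standard errors of the 10 genes in the 3 comparisons, 2 libraries per group; the filled red point passed an adjusted p of 0.05. Traf1 in TAM-IC over naive is the one filled point, Traf1 over naive is nearly the same in both TAM groups, and the widest bars belong to Tnf and Lta.

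A further 75 genes of the pathway, in 7 lists, were read in the same fit. EdgeR called 0 of the 75 in each comparison. With the mouse number as a block it called 4 higher and 1 lower in TAM-IC over naive, where that fit called 1.2% of all genes, and 0 in the other comparisons. By sign, 60 were higher and 15 lower in TAM-IC than in naive macrophages (median log2 fold change 0.62), 56 higher and 19 lower in TAM-NIC (median 0.37), and 40 higher and 35 lower between the TAM groups (median 0.05). At an unadjusted p under 0.05 there were 26 higher and 2 lower, 27 higher and 1 lower, and 4 higher and 5 lower, in a background of 14.6%, 15.2% and 17.1% of all genes. DESeq2 called 13 higher and 1 lower, 20 higher and 0 lower, and 1 higher and 3 lower. It called 7.99%, 7.95% and 10.3% of all genes in these comparisons, both directions together.

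Among genes that control the release of TNF from the membrane, 3 of 5 were higher by sign in TAM-IC than in naive macrophages and 4 of 5 in TAM-NIC. Timp3, an inhibitor of shedding, was among the higher genes in both, so these counts do not measure release. It read 10.4 and 29.1 CPM in TAM-NIC, 1.71 and 1.04 CPM in TAM-IC, and 0.64 and 0.381 CPM in naive macrophages. Frmd8, which holds the iRhom and ADAM17 complex at the cell surface, read 123 and 103 CPM in TAM-NIC, 181 and 268 CPM in TAM-IC, and 162 and 178 CPM in naive macrophages. TAM-NIC was the lowest group, with a log2 fold change of 1.01 ± 0.31 (SE) for TAM-IC over TAM-NIC (edgeR adjusted p = 0.212). Rhbdf2, which encodes the iRhom of macrophages, differed by -0.47 ± 0.26 (SE) in that comparison, and Adam10, a related sheddase, by 0.56 ± 0.25 for TAM-IC over naive. Ltbr, the receptor for the Lta and Ltb trimer, read 105 and 54.8 CPM, 92.9 and 104 CPM, and 102 and 87.3 CPM in TAM-NIC, TAM-IC and naive macrophages, and its groups overlapped.

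The ubiquitin ligases and kinases that build on TRAF2 and RIPK1 were mostly higher by sign in TAM-IC than in naive macrophages, 18 of 20 with a median of 0.50, and 14 of 20 in TAM-NIC with a median of 0.16. The TAM-NIC count depended on scaling: it was 12 of 20 with RLE size factors and 10 of 20, with a median of 0.01, with library totals. Birc3, the ligase cIAP2, read 138 and 201 CPM in TAM-NIC, 165 and 166 CPM in TAM-IC, and 87.2 and 106 CPM in naive macrophages. Every TAM library was above both naive libraries, with a log2 fold change of 0.94 ± 0.28 (SE) in TAM-IC and 0.95 ± 0.28 in TAM-NIC (edgeR adjusted p = 0.239 and 0.243). Traf6, a related adaptor, differed by 0.97 ± 0.22 and Mapkapk2, the p38 target kinase that stabilises Tnf mRNA, by 1.10 ± 0.31 in TAM-IC over naive (edgeR adjusted p = 0.172 and 0.226). Tank, a TRAF-binding adaptor, differed by 0.71 ± 0.24 in TAM-NIC over naive. Ikbkb and Map3k5, kinases of the NF-kB and stress branches, differed by 0.95 ± 0.35 and 0.99 ± 0.30 in TAM-IC over TAM-NIC (edgeR adjusted p = 0.261 and 0.212).

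Among inhibitors of the complex, Tnfaip3, the ubiquitin-editing enzyme A20, shared the single high library of Tnf. Tnfaip3 read 149 and 2167 CPM in TAM-NIC, 125 and 131 CPM in TAM-IC, and 78.0 and 60.1 CPM in naive macrophages. TAM-NIC replicate 2 again stood alone, and the other 3 TAM libraries lay close together above both naive libraries. Its log2 fold change was 4.18 ± 1.16 (SE) for TAM-NIC over naive and -3.14 ± 1.11 for TAM-IC over TAM-NIC (edgeR adjusted p = 0.234 and 0.243). Without TAM-NIC replicate 2 these were 1.27 and -0.26 (edgeR adjusted p = 0.082 and 0.675), and without replicate 1 they were 5.04 and -4.02 (edgeR adjusted p = 0.00841 and 0.00931). Otulin and Cyld, deubiquitinases of the complex, differed by 1.49 ± 0.48 and 0.67 ± 0.22 in TAM-IC over naive, and the A20 partner Tnip1 by 0.74 ± 0.23 in TAM-NIC over naive (edgeR adjusted p = 0.271, 0.277 and 0.249). The deubiquitinase Usp4 differed by 0.60 ± 0.28 in TAM-IC over TAM-NIC.

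Of the death branch, Zbp1, an innate sensor of nucleic acids that engages RIPK3, read 135 and 67.8 CPM in TAM-NIC, 220.4 and 95.2 CPM in TAM-IC, and 27.8 and 25.0 CPM in naive macrophages. All TAM libraries lay above naive macrophages, with log2 fold changes of 2.72 ± 0.52 (SE) in TAM-IC and 2.09 ± 0.51 in TAM-NIC (edgeR adjusted p = 0.129 and 0.224). The first was called with the mouse number as a block, at an adjusted p of 0.0262. Ripk3, the kinase of necroptosis, pointed the other way in TAM-IC, at 51.9 and 29.2 CPM against 69.2 and 111 CPM in TAM-NIC and 110 and 80.9 CPM in naive macrophages. Its log2 fold change was -1.08 ± 0.37 (SE) for TAM-IC over naive and -1.14 ± 0.37 for TAM-IC over TAM-NIC (edgeR adjusted p = 0.297 and 0.225). Bid, which links the receptor to mitochondrial death, differed by 0.81 ± 0.34 in TAM-IC over TAM-NIC, with both TAM-NIC libraries below all 4 others.

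Genes that act on the Tnf transcript included Map3k8, the kinase TPL2 required for TNF production. Map3k8 read 143 and 169 CPM in TAM-NIC, 124 and 163 CPM in TAM-IC, and 51.8 and 39.1 CPM in naive macrophages. Its pattern resembled that of Traf1, with both TAM groups above naive and overlapping each other. The log2 fold change was 1.82 ± 0.29 (SE) in TAM-IC and 1.91 ± 0.29 in TAM-NIC (edgeR adjusted p = 0.0927 and 0.219). Zfp36l2, a decay factor of the tristetraprolin family that binds AU-rich elements like the one shown above, read 368 and 323 CPM, 579 and 793 CPM, and 312 and 286 CPM in TAM-NIC, TAM-IC and naive macrophages. TAM-IC was the highest group, by 1.36 ± 0.33 (SE) over naive (edgeR adjusted p = 0.184) and 1.01 ± 0.32 over TAM-NIC (edgeR adjusted p = 0.218). Zc3h12a, an RNase that degrades inflammatory mRNAs, read 145 CPM in TAM-NIC replicate 2 and 17.4 to 34.9 CPM elsewhere, with a log2 fold change of 2.41 ± 0.66 (SE) for TAM-NIC over naive (edgeR adjusted p = 0.234). Without the high library it was 1.00, and without its partner 3.08 (edgeR adjusted p = 0.108 and 0.0111).

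The 22 TNF response genes, known targets of NF-kB in many cells, were higher by sign than in naive macrophages for 18 in TAM-IC (17 with RLE size factors or library totals) and 20 in TAM-NIC. Their median log2 fold changes were 1.20 and 2.03, and that between the TAM groups was -0.47. Without TAM-NIC replicate 2 the median of TAM-NIC over naive was 1.11, with 18 of 22 higher, and that between the TAM groups was -0.10. Against the mean of the naive libraries, the median gene lay at 1.12 and 2.10 in TAM-NIC and at 1.35 and 1.04 in TAM-IC, on the log2 scale of CPM. At least a doubling, a log2 of 1, was seen for 13, 17, 14 and 11 of the 22 genes in those libraries.

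Within that list Sod2, the mitochondrial superoxide dismutase, read 106 and 161 CPM in TAM-NIC, 118 and 87.7 CPM in TAM-IC, and 49.0 and 44.6 CPM in naive macrophages. It lay above naive in every TAM library, by 1.29 ± 0.29 (SE; edgeR adjusted p = 0.169) in TAM-IC and 1.65 ± 0.29 (edgeR adjusted p = 0.219) in TAM-NIC. Gadd45b, a stress-response gene, read 348 CPM in TAM-NIC replicate 2, 65.3 to 85.7 CPM in the other TAM libraries, and 27.7 and 27.4 CPM in naive macrophages. Its log2 fold change in TAM-NIC over naive was 3.10 ± 0.65 (SE; edgeR adjusted p = 0.219). Without the high library it was 1.81, and without its partner 3.74, each called by edgeR (adjusted p = 0.0479 and 0.00876). Vcam1, an adhesion molecule that marrow-resident macrophages carry and that is also on the macrophage marker list, pointed the opposite way in TAM-IC. It read 5063 and 5805 CPM in TAM-NIC, 260 and 153 CPM in TAM-IC, and 8636 and 4335 CPM in naive macrophages, a log2 fold change of -4.83 ± 0.63 (SE) for TAM-IC over naive and -4.71 ± 0.63 for TAM-IC over TAM-NIC. The edgeR adjusted p-values were 0.0702 and 0.095, and the first was 0.0448 with the mouse number as a block. The block also called Ccl5, a chemokine (log2 fold change 3.67 ± 0.89 (SE) in TAM-IC over naive without the block), Junb, an AP-1 subunit (3.66 ± 0.92), and Bcl2a1d, a survival gene with near-identical copies whose reads may be split (4.43 ± 0.61). Their edgeR adjusted p-values were 0.188, 0.198 and 0.0722 without the block, and 0.0358, 0.0358 and 0.0353 with it.

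**Figure D4:**
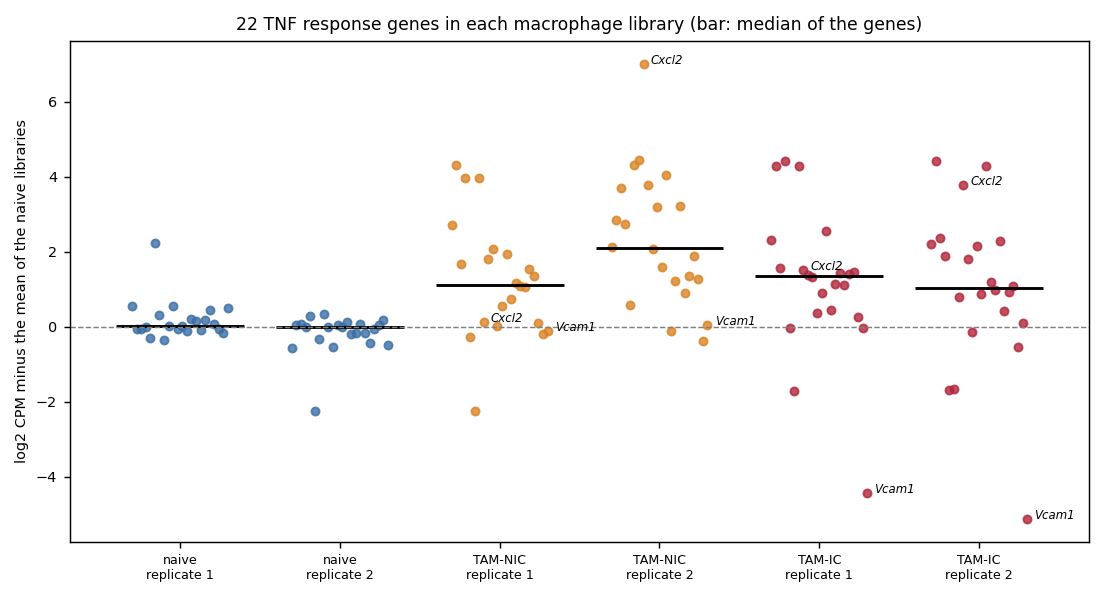
Log2 CPM of 22 TNF response genes minus the mean of the naive libraries, in each of the 6 macrophage libraries; points are genes and bars their median. TAM medians lie between 1.04 and 2.10, the highest in TAM-NIC replicate 2, where Cxcl2 is the topmost gene, and Vcam1 is far below naive in both TAM-IC libraries.

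The genes most like Tnf and Traf1 were ranked by Pearson correlation of log2 CPM over the 6 macrophage libraries, among 8681 genes, as a description. Those nearest to Tnf were Gdap2 (r = 0.998), Zbtb21 (0.992), Tiparp (0.992), Zrsr2 (0.991) and Cd2bp2 (0.990). All 5 had their highest level in TAM-NIC replicate 2, for example 409 CPM of Tiparp against 76.3 to 112 CPM elsewhere, so that 1 library sets these values. Those nearest to Traf1 were Atf6 (r = 0.990), Nfkb2 (0.989), Slc35e2 (0.983), Snd1 (0.982) and Fam204a (0.980). Nfkb2, which encodes the p100 precursor of non-canonical NF-kB, was itself on the response list and read 200 and 218 CPM in TAM-NIC, 202 and 175 CPM in TAM-IC, and 112 and 90.3 CPM in naive macrophages. All 5 were higher in each of the 4 TAM libraries than in both naive libraries.

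In the plasma cell libraries all 10 genes had counts, though Lta only 2 and 6. Over 67% of those libraries' counts were immunoglobulin, which lowers the CPM of every other gene. Ltb and Tradd led per kb, with 8.58 and 15.5 CPM per kb of Ltb and 8.75 and 8.55 CPM per kb of Tradd. The receptors were at 3.80 and 2.04 CPM per kb (Tnfrsf1a) and 3.68 and 2.10 CPM per kb (Tnfrsf1b), a ratio near 1 as in naive replicate 1. Tnf was at 1.10 and 1.11 CPM per kb and Lta at 0.0177 and 0.113 CPM per kb. Traf1, at 1.92 and 0.890 CPM per kb, stood nearer to Traf2 than in naive macrophages, with a ratio of 0.485 and 0.425. Ripk1 read 26.8 and 8.97 CPM and Adam17 16.9 and 7.80 CPM, each lower than in any macrophage library.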

How the data were processed

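Bulk RNA from sorted mouse cells was sequenced after SMART-Seq v4 amplification, a kit that does not mark the strand, per the labels' protocols. The deposited values are read counts per gene. Per the submitters' processing notes, the authors' tools were featureCounts, STAR and DESeq2 1.26 and the build was GRCm38 (mm10), with no roles given. The sources used here do not say how reads with several positions were counted.

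Of 47643 macrophage identifiers, 47224 matched GENCODE M21 (GRCm38). CPM uses library totals, and CPM per kb divides by the union of exons. EdgeR 4.0.16 (R 4.3.3) fitted 1 quasi-likelihood model by group to the macrophage libraries, TMM-scaled and filtered by filterByExpr (minimum count 10, minimum total 15), leaving 15522 genes and 3 residual degrees of freedom. A gene was called when its p, adjusted by Benjamini-Hochberg over all of them, was under 0.05. DESeq2 1.42.0, limma 3.58.1, other scalings, filters and dispersions, a replicate block and leaving out each library made 14 alternatives. The scripts were tested on simulated data.

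The members and the lists were chosen with earlier results of these data known. Named in the text are all members, up to 2 genes per pathway list and comparison with the smallest p and a mean log2 CPM of 3 or more, and the 5 genes most like Tnf and Traf1 (prior count 2). Cd5l, Ccr2, Cd79b, Cd4, Cxcl2, Ccl5, Junb and Bcl2a1d were named after their values were seen. The TAM labels' mouse numbers pair the libraries on paper, but deviations of same-numbered libraries correlated at r = 0.152 and Y-linked counts differ within mouse 2. The fit without the block is therefore reported, with the block named where it changes a call.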

Additional observations from a re-analysis of the deposited data

How the results depend on the processing

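The calls, more than the directions, depended on the method and on single libraries. Between TAM-IC and TAM-NIC edgeR called 0 genes and 0 members. DESeq2 called 1593 genes and 3 members, no filter on low counts 1871 and 2, bias-adjusted quasi-dispersions 22 genes and the replicate block 59 genes, both with 0 members. Leaving out 1 library gave 0 to 1510 genes and 0 to 1 members, the upper values without TAM-NIC replicate 1. For TAM-IC over naive (34 genes, 1 member), DESeq2 called 1191 and 2, limma-voom 0 and 0, RLE size factors 22 and 0, library totals 18 and 0, no filter 1437 and 2, bias-adjusted quasi-dispersions 56 and 1, the replicate block 187 and 1, and the stricter filter 26 and 0. Leaving out 1 library gave 0 to 534 genes and 0 to 1 members, with 534 without TAM-NIC replicate 1, 481 without its replicate 2, and 0 without any one of the TAM-IC or naive libraries. For TAM-NIC over naive (0 and 0), DESeq2 called 1264 and 3, no filter 1548 and 3, and leaving out 1 library 0 to 477 genes and 0 to 2 members. In that comparison 477 genes and 2 members came without TAM-NIC replicate 1, and 274 and 1 without replicate 2. The cause was not tested. Removing a library leaves 1 in its group, assumed to vary like the others.

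Traf1 in TAM-IC over naive kept its direction in all 14 alternatives. Its adjusted p was 0.107 with limma-voom, 0.0506 with RLE, 0.058 with library totals, 0.0541 with the stricter filter and 0.0342 with bias-adjusted quasi-dispersions. The replicate block changed the call of 0 members.

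Some log2 fold changes turned their sign when 1 library was left out. Between the TAM groups these ranged from -4.21 to 0.95 for Tnf, -0.45 to 0.30 for Traf1, -0.36 to 0.69 for Traf2, -0.22 to 0.16 for Ripk1, -0.94 to 0.62 for Adam17 and -0.12 to 0.91 for Ltbr. For TAM-IC over naive they ranged from -0.85 to 1.51 for Lta, -0.048 to 0.54 for Ltb and -0.22 to 0.0028 for Tradd. For TAM-NIC over naive they ranged from -8.05 to 0.13 for Lta, whose lowest value is set against a library with 0 counts and depends on the prior count, -0.047 to 0.20 for Tradd, -0.065 to 0.98 for Traf2, -0.017 to 0.37 for Ripk1 and -0.72 to 0.31 for Ltbr. Lta in TAM-IC over naive was also 0.47 with limma-voom and 0.24 with the replicate block, and Tradd in TAM-NIC over naive -0.042 with library totals. The cause was not tested. With 2 libraries per group, a difference that did not pass a test is not shown to be absent, and Lta is limited by depth.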
